A study of Mus musculus with 11 samples.

Results

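Genes of cholesterol synthesis and of its control by sterols were followed in sorted mouse motor neurons. The set names 30 genes, chosen by their known roles while earlier results of these data were known. They include the enzymes of the mevalonate and sterol pathway and the sterol sensors and transcription factors that control them. Fatty acid enzymes under the same control and 3 sterol carriers complete the set. Of the 30 genes, 29 had at least 1 probe set annotated to that single symbol, among 18193 such genes and 45037 probe sets tested. Each was read from the 1 probe set that was brightest on average over the 11 arrays. The expression of Acat2, a thiolase, was not analysed here. The 29 genes had 65 probe sets in all.

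The RNA came from C57/BL6 embryos that carried Hb9::GFP, a reporter in which motor neuron regulatory sequence drives green fluorescent protein. Neurons were filled from a nerve with rhodamine dextran in an explant, which marks cells that send an axon into it, and cells were sorted from dissociated spinal cord. Motor neurons of the phrenic nerve, the motor supply of the diaphragm, made up 4 arrays. Neurons of the lateral motor column filled from the radial nerve of the forelimb, here LMC radial, made up 3 arrays. Cells of segments C3 to C5 sorted on the reporter with no tracer, here C3-C5 GFP-only, made up 4. All groups share strain and reporter, and the labels give the age only as embryonic. They name no segment for LMC radial neurons, so segment and cell type cannot be told apart there. In comparisons with C3-C5 GFP-only cells, which had no tracer, filling from a nerve and cell type cannot be told apart either. Whether the arrays of a type are separate embryos or litters is not stated, and the p-values therefore measure only how far arrays spread.

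Cells make cholesterol from acetyl-CoA through mevalonate, farnesyl diphosphate, squalene and lanosterol. The genes are switched on by the SREBP transcription factors, which leave the endoplasmic reticulum with their escort Scap when sterols are scarce, while the Insig proteins hold the Scap-SREBP complex back when sterols are plentiful. Embryonic neurons need sterol for growing axon membrane and make much of it themselves before glia mature.

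Phrenic neurons had less Insig2 RNA than either other type, and less Msmo1, Lss and Ebp RNA than LMC radial neurons, while most of the pathway did not pass the test in any comparison. Throughout, values are log2 expression as deposited, differences are log2 differences ± SE from limma over all 11 arrays, and a gene passes when its p adjusted over all 45037 probe sets is under 0.05. In phrenic against the mean of the other types 4 of 29 genes were lower, against 1.45% of all probe sets, and 1 was higher, against 2.4%. In phrenic against LMC radial neurons 4 of 29 were lower and 0 higher, against 3.14% and 3.48% of all probe sets. In phrenic against C3-C5 GFP-only cells 2 were lower and 1 higher, against 0.986% and 0.973%. The members are mostly bright, and among 8901 genes with a mean above 6 the lower calls were 2.37% for phrenic against the mean of the others and 2.4% against LMC radial.

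LMC radial neurons against the mean of the other types had 4 of 29 genes higher and 0 lower, against 3.65% and 3.37% of all probe sets. These were the same 4 genes, Insig2, Msmo1, Lss and Ebp. The phrenic arrays enter both comparisons, so they are not separate results. Against C3-C5 GFP-only cells alone, LMC radial neurons had 1 gene higher, Scd1, and 0 lower, against 1.88% and 1.88%. In C3-C5 GFP-only cells against the mean of the other types 0 genes were higher and 0 lower in limma, against 0.691% and 0.282%. At an unadjusted limma p under 0.05 there were 5 of 29 genes, beside 6685 of all 45037 probe sets.

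These counts are small and single arrays moved them. The count of 5 in phrenic against the mean of the others was 3 without any of 9 arrays, the exceptions being phrenic replicate 3 (5) and C3-C5 GFP-only replicate 1 (4). That of 4 in LMC radial against the mean of the others was 1 without LMC radial replicate 3 and 2 without LMC radial replicates 1 or 2, phrenic replicate 2, or C3-C5 GFP-only replicates 2 or 3. That of 3 in phrenic against C3-C5 GFP-only was 1 without phrenic replicates 1 or 2 or C3-C5 GFP-only replicates 2, 3 or 4. That of 4 in phrenic against LMC radial stayed between 3 and 5.

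**Figure D1:**
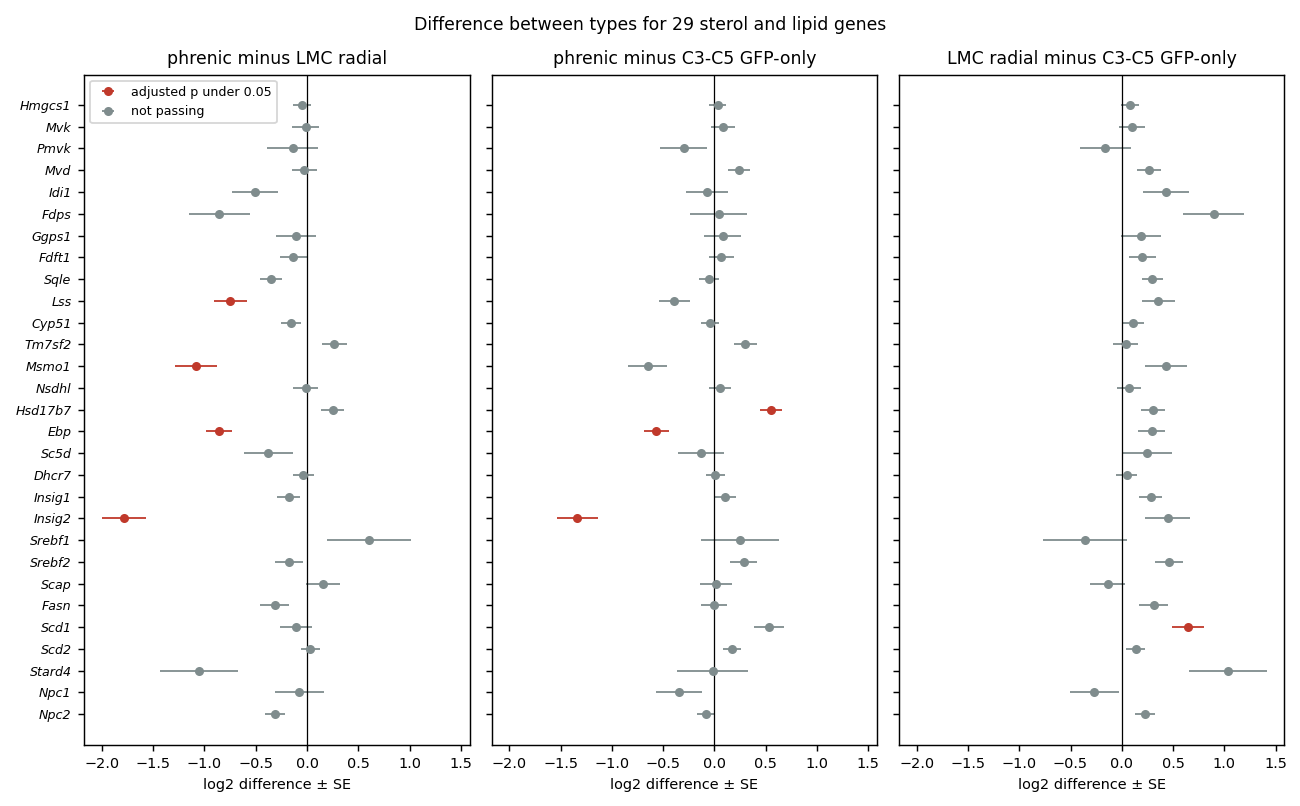
Log2 differences ± SE of the 29 genes, in pathway order from top to bottom, for phrenic minus LMC radial, phrenic minus C3-C5 GFP-only and LMC radial minus C3-C5 GFP-only, with genes passing at an adjusted p under 0.05 in red. Insig2 lies furthest to the left in both phrenic panels, at -1.79 and -1.34.

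The clearest difference was in Insig2, an endoplasmic reticulum protein that retains the Scap-SREBP complex. Its values were 6.996, 7.33, 7.13 and 6.33 in phrenic replicates 1 to 4, against 8.83, 8.67 and 8.70 in LMC radial replicates and 7.93, 8.45, 8.33 and 8.43 in C3-C5 GFP-only replicates. Every phrenic array lay below every other array, and every LMC radial array above every C3-C5 GFP-only array. Phrenic neurons were 3.45-fold lower than LMC radial neurons (-1.79 ± 0.22, limma adjusted p = 0.000794). They were 2.53-fold lower than C3-C5 GFP-only cells (-1.34 ± 0.20, limma adjusted p = 0.00635). Between LMC radial and C3-C5 GFP-only cells the difference of 0.45 ± 0.22 did not pass (limma adjusted p = 0.281), although their arrays did not overlap. In bulk RNA, fewer cells that express a gene and less RNA per cell cannot be told apart.

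All 3 probe sets of Insig2 gave this order of means. The probe set 1417980_a_at was at 6.55, 6.92, 6.52 and 7.10 in phrenic, against 8.30, 7.86 and 8.43 in LMC radial and 7.46, 7.98, 7.79 and 8.01 in C3-C5 GFP-only arrays. The probe set 1417982_at was at 7.34, 6.77, 6.15 and 6.50 in phrenic, against 8.13, 8.55 and 8.24 in LMC radial and 7.66, 7.58, 7.57 and 7.64 in C3-C5 GFP-only arrays. In each, all phrenic arrays lay below all others. Both passed against LMC radial neurons (-1.42 ± 0.20 and -1.61 ± 0.23, limma adjusted p = 0.00191 and 0.00204). Against C3-C5 GFP-only cells 1417980_a_at passed at -1.04 ± 0.18 (limma adjusted p = 0.016), and 1417982_at did not, at -0.92 ± 0.21 (limma adjusted p = 0.0558).

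**Figure D2:**
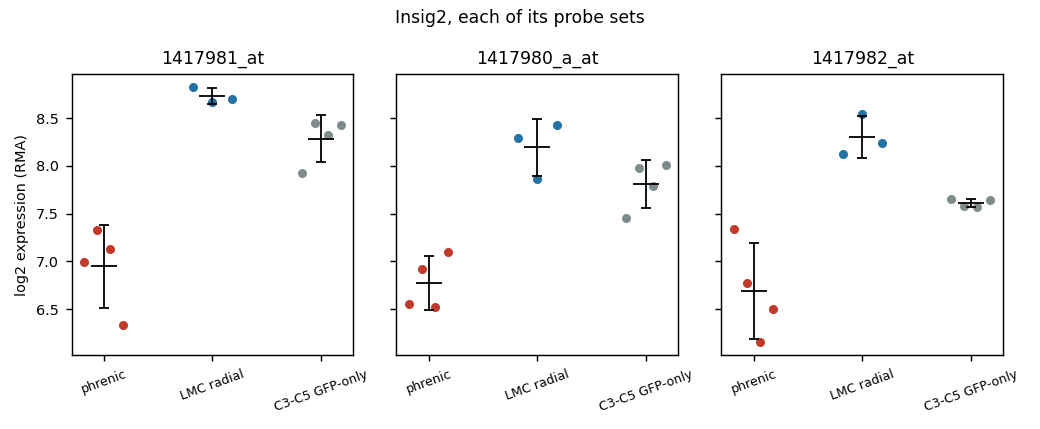
Log2 expression of Insig2 in each array for each of its 3 probe sets, by cell type, with the mean ± SD as a black bar. In all 3 panels the 4 phrenic arrays lie below the other 7.

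The 25th percentile of all values was 3.18 to 3.20 in replicates 2 and 3 of phrenic and of C3-C5 GFP-only cells, and 3.26 to 3.38 in the other 7 arrays. Within the lower 4 arrays the phrenic minus C3-C5 GFP-only difference of Insig2 was -1.16, and within the other 7 it was -1.52. Against LMC radial neurons and against the mean of the other types Insig2 passed in 24 of 24 and 23 of 23 alternatives. Against C3-C5 GFP-only cells it failed within the 7 arrays alone and with the mesenchyme marker mean as a covariate, where the difference was -0.80 with limma adjusted p = 0.485.

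Insig1, the other Insig protein and itself a strong SREBP target, was among the brightest members and did not follow Insig2. It was at 11.93, 11.79, 11.83 and 11.91 in phrenic, against 12.00, 12.02 and 12.10 in LMC radial and 11.50, 11.84, 11.82 and 11.88 in C3-C5 GFP-only arrays. Phrenic and C3-C5 GFP-only arrays overlapped, and LMC radial arrays lay above both without passing (0.23 ± 0.10 against the mean of the other types, limma adjusted p = 0.199). Phrenic minus LMC radial was -0.18 ± 0.11 for Insig1, beside -1.79 ± 0.22 for Insig2.

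The SREBP genes and Scap passed in none of the 6 comparisons. Srebf2, the SREBP tied mainly to cholesterol genes, was at 10.89, 10.64, 10.62 and 10.90 in phrenic, against 11.11, 10.91 and 10.79 in LMC radial and 10.73, 10.28, 10.43 and 10.47 in C3-C5 GFP-only arrays. Its largest difference was LMC radial minus C3-C5 GFP-only, at 0.46 ± 0.14 (limma adjusted p = 0.0956), where the arrays did not overlap. Srebf1, tied mainly to fatty acid genes, was the most scattered of the regulators, at 6.15, 7.17, 7.97 and 6.98 in phrenic, against 6.08, 6.63 and 6.67 in LMC radial and 6.16, 7.50, 7.17 and 6.45 in C3-C5 GFP-only arrays. Scap, the escort, was at 8.27, 8.19, 8.42 and 8.05 in phrenic, against 7.996, 8.09 and 8.15 in LMC radial and 8.61, 8.25, 8.19 and 7.81 in C3-C5 GFP-only arrays. The 3 types overlapped for both Srebf1 and Scap.

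The promoters of the 4 genes that were lower in phrenic neurons are shown with those of Insig1 and Hmgcs1, which are SREBP targets that did not pass, so that their elements can be compared. Each line gives the 250 bases before a transcription start, 5′ to 3′, from RefSeq on GRCm38.p6, with these motifs in capitals on either strand: the sterol element TCACNCCAC, the E-box CACGTG, the CCAAT box and the GC box GGGCGG. RefSeq lists 3 starts for Insig2, of which the outermost and the next are shown.
Insig2 outer start, chr1:121332590-121332839, minus strand: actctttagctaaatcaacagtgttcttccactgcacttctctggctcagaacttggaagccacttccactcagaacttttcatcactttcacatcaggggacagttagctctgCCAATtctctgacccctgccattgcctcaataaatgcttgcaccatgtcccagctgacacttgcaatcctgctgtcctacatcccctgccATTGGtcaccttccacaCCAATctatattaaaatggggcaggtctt
Insig2 inner start, chr1:121328025-121328274, minus strand: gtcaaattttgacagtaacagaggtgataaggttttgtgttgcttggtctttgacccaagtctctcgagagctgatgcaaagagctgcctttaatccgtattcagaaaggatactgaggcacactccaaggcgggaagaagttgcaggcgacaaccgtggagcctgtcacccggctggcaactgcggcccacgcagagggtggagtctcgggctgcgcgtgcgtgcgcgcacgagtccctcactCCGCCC
Insig1, chr5:28071162-28071411, plus strand: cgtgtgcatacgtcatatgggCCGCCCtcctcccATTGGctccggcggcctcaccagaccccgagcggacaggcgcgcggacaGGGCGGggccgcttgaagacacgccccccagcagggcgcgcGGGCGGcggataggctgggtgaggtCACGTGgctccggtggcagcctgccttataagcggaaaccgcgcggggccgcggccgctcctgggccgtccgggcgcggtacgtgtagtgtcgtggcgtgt
Msmo1, chr8:64733579-64733828, minus strand: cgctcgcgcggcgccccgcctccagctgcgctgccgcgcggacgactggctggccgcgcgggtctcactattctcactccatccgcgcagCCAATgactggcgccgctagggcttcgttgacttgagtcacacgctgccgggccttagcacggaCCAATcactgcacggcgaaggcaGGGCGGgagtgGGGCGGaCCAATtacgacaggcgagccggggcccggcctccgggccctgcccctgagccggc
Lss, chr10:76531355-76531604, plus strand: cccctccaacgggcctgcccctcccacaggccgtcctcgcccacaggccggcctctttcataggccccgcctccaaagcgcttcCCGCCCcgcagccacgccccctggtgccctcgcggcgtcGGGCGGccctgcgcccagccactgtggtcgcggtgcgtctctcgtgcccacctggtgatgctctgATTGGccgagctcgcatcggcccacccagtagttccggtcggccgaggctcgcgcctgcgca
Ebp, chrX:8193513-8193762, minus strand: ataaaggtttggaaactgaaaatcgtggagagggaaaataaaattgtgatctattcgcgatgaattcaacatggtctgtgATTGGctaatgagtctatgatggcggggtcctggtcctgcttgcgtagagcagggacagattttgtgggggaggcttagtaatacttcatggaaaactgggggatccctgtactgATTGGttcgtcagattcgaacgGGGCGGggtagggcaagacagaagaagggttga
Hmgcs1, chr13:119690101-119690350, plus strand: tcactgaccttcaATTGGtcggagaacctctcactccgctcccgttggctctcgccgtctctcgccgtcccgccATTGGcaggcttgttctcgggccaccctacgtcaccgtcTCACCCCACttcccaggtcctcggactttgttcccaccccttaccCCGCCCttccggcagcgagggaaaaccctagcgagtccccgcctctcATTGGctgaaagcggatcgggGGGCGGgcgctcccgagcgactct

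Upstream of its outer start Insig2 held CCAAT boxes at -136, -46 and -29, counted from the start, and no match to the other motifs, while its next start held a GC box alone. Insig1 held an E-box at -101, with 3 GC boxes and 1 CCAAT box. Msmo1 held 3 CCAAT and 2 GC boxes, Lss 1 and 2, and Ebp 2 and 1. Of these lines only that of Hmgcs1 held the sterol element, at -137. No matches overlapped in the lines shown.

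Promoters were found for 23 of the 30 genes, Acat2 among them. A CCAAT box, which NF-Y binds beside SREBP in many sterol genes, lay upstream of at least 1 start in 21 of 23, against 39.5% of 17492 protein-coding genes and 37.5% of all 27025 genes in the table. A GC box lay in 20 of 23, against 45.8% of protein-coding genes. The E-box lay in 5 of 23, namely Hsd17b7, Sc5d, Dhcr7, Insig1 and Scap, against 7.61%, and the sterol element in 1 of 23, against 1.2%. These are matches of letters in a short window and were not tested as binding sites. The CCAAT box was in genes that passed and in genes that did not.

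Beyond lanosterol, where the ring methyl groups are removed and double bonds shifted, 8 enzymes were measured. Msmo1, a sterol methyl oxidase, was at 8.70, 8.44, 8.32 and 8.63 in phrenic, against 9.76, 9.32 and 9.74 in LMC radial and 9.68, 8.91, 8.87 and 9.24 in C3-C5 GFP-only arrays. Every phrenic array lay below every other. It was 2.12-fold lower in phrenic than in LMC radial neurons (-1.08 ± 0.20, limma adjusted p = 0.00984), and phrenic minus C3-C5 GFP-only was -0.65 ± 0.19 without passing (limma adjusted p = 0.127). Its other probe set, 1423078_a_at, passed against LMC radial neurons too (-1.28 ± 0.29, limma adjusted p = 0.0234). In that probe set phrenic against the mean of the other types did not pass (-0.86 ± 0.24, limma adjusted p = 0.0761), and phrenic arrays overlapped the others. The call of Msmo1 for LMC radial against the mean of the others (0.76 ± 0.18, limma adjusted p = 0.0302) was lost without phrenic replicate 2, LMC radial replicates 1 or 3 or C3-C5 GFP-only replicates 2 or 3 (limma adjusted p up to 0.128).

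Ebp, the sterol isomerase also known as emopamil binding protein, was among the dimmest members. It was at 5.93, 6.08, 5.87 and 6.04 in phrenic, against 6.54, 7.01 and 6.96 in LMC radial and 6.60, 6.64, 6.44 and 6.50 in C3-C5 GFP-only arrays. The phrenic arrays spanned a narrow range below all others. The difference was -0.86 ± 0.13 against LMC radial (1.81-fold lower, limma adjusted p = 0.00309) and -0.57 ± 0.12 against C3-C5 GFP-only (1.48-fold lower, limma adjusted p = 0.0389). The call against C3-C5 GFP-only was lost in 16 of 24 alternatives, among them leaving out any of 8 arrays (all 4 C3-C5 GFP-only replicates, phrenic replicates 1, 2 and 3 and LMC radial replicate 3, limma adjusted p up to 0.123), although the difference stayed between -0.60 and -0.52. The replicate block, which takes arrays of the same number together although they were not shown to be pairs, also ended it (-0.57, limma adjusted p = 0.0616). That of Ebp for LMC radial against the mean of the others (0.57 ± 0.12, limma adjusted p = 0.0145) was lost without LMC radial replicates 2 or 3 (limma adjusted p up to 0.0791).

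Hsd17b7, a sterol ketone reductase of the same stretch, went the other way. Its brightest probe set was at 10.73, 10.60, 10.40 and 10.58 in phrenic, against 10.39, 10.25 and 10.33 in LMC radial and 10.15, 9.94, 9.89 and 10.10 in C3-C5 GFP-only arrays. Phrenic arrays lay above all others, by a small margin over LMC radial ones. Phrenic minus C3-C5 GFP-only was 0.56 ± 0.11 (1.47-fold higher, limma adjusted p = 0.0226), and phrenic minus LMC radial, at 0.25 ± 0.11, did not pass (limma adjusted p = 0.226). Without phrenic replicates 1 or 2 or C3-C5 GFP-only replicates 2, 3 or 4 the call against C3-C5 GFP-only was lost (limma adjusted p up to 0.0831). Against the mean of the other types it was 0.40 ± 0.09 (limma adjusted p = 0.0396), lost without any array except phrenic replicate 3 and C3-C5 GFP-only replicate 1 (limma adjusted p up to 0.0929). This probe set, 1457248_x_at, carries the suffix given to sets with probes that can match other transcripts. The next brightest, 1448865_at, gave another order, with the highest mean in LMC radial neurons and a pass for LMC radial minus C3-C5 GFP-only (1.05 ± 0.23, limma adjusted p = 0.0348).

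The other 5 enzymes of this stretch passed in no comparison. Cyp51, the lanosterol demethylase, averaged 10.55 ± 0.09 in phrenic, 10.70 ± 0.11 in LMC radial and 10.59 ± 0.03 in C3-C5 GFP-only arrays (SD, n = 4, 3 and 4). Dhcr7, which makes cholesterol from its last precursor on one branch, averaged 11.29 ± 0.07, 11.33 ± 0.04 and 11.28 ± 0.13 in phrenic, LMC radial and C3-C5 GFP-only arrays. Nsdhl, a sterol decarboxylase, differed by at most 0.07 between any types, and Sc5d, a desaturase, by at most 0.38. Tm7sf2, a sterol reductase, had a phrenic minus C3-C5 GFP-only difference of 0.30 ± 0.11 (limma adjusted p = 0.27).

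Of the 3 enzymes that turn farnesyl diphosphate into lanosterol, Lss passed. Lss, lanosterol synthase, was at 8.99, 9.45, 9.58 and 9.24 in phrenic, against 9.98, 9.999 and 10.21 in LMC radial and 9.61, 9.61, 9.58 and 10.01 in C3-C5 GFP-only arrays. Phrenic and LMC radial arrays did not overlap, and phrenic replicate 3 met the lowest C3-C5 GFP-only array. Phrenic minus LMC radial was -0.75 ± 0.16 (1.68-fold lower, limma adjusted p = 0.0208), a call lost without any 1 of the LMC radial replicates (limma adjusted p up to 0.0842). The calls against the mean of the other types were close to the threshold (limma adjusted p = 0.0412 for phrenic and 0.044 for LMC radial). For phrenic it was lost without any array except phrenic replicate 3, and for LMC radial without phrenic replicate 2, any LMC radial replicate or C3-C5 GFP-only replicates 1, 2 or 3. The other 2 probe sets of Lss had differences in the same direction and did not pass.

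Sqle, squalene epoxidase, averaged 10.12 ± 0.05 in phrenic (SD, n = 4), 10.47 ± 0.11 in LMC radial (n = 3) and 10.18 ± 0.12 in C3-C5 GFP-only arrays (n = 4). LMC radial arrays lay above all others, with 0.33 ± 0.09 against the mean of the other types just short of the threshold (limma adjusted p = 0.0605). Fdft1, squalene synthase, did not pass by its brightest probe set, 1438322_x_at (0.17 ± 0.12 for LMC radial against the mean of the others, limma adjusted p = 0.435). That set too carries the suffix for probes that can match other transcripts. Its next, 1448130_at, without that suffix, passed in this comparison (0.47 ± 0.12, limma adjusted p = 0.0367), with LMC radial arrays above all others.

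None of the 7 measured enzymes that lead from acetyl units to the prenyl diphosphates passed in any of the 6 comparisons. Hmgcs1, which makes HMG-CoA, was the brightest of all members, at 13.07 to 13.19 in phrenic, 13.14 to 13.19 in LMC radial and 13.05 to 13.16 in C3-C5 GFP-only arrays. Its 4 dimmer probe sets passed in no comparison either. Fdps, farnesyl diphosphate synthase, had the largest difference of these enzymes, at 9.91, 9.39, 8.71 and 9.29 in phrenic, against 10.11, 10.33 and 10.11 in LMC radial and 9.76, 8.78, 8.91 and 9.68 in C3-C5 GFP-only arrays. LMC radial arrays lay above all others, and the scatter within the other types was wide. The LMC radial minus mean of the others difference was 0.88 ± 0.26 (limma adjusted p = 0.0744). Idi1, the isopentenyl isomerase, gave 0.47 ± 0.20 in that comparison. The kinases Mvk and Pmvk, the decarboxylase Mvd and the prenyl synthase Ggps1 gave 0.05, -0.01, 0.14 and 0.14.

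**Figure D3:**
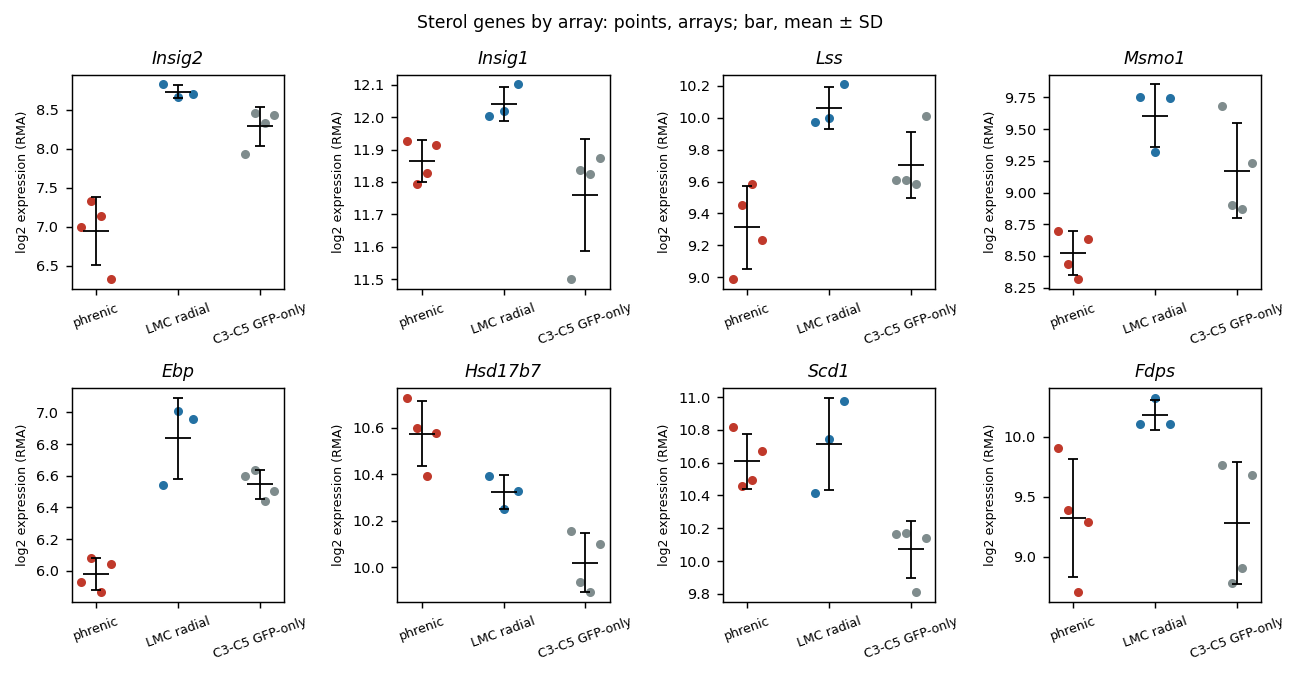
Log2 expression by array of the 6 genes that passed in at least 1 comparison, with Insig1 and Fdps beside them, by cell type (points, arrays; black bar, mean ± SD). Phrenic arrays lie lowest for Insig2, Msmo1 and Ebp and highest for Hsd17b7, and for Insig1 phrenic and C3-C5 GFP-only arrays overlap.

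Among the fatty acid enzymes, Scd1, a stearoyl-CoA desaturase, was lowest in C3-C5 GFP-only cells. It was at 10.82, 10.46, 10.49 and 10.67 in phrenic, against 10.42, 10.75 and 10.98 in LMC radial and 10.16, 10.17, 9.81 and 10.14 in C3-C5 GFP-only arrays. All C3-C5 GFP-only arrays lay below all others. LMC radial minus C3-C5 GFP-only was 0.64 ± 0.16 (1.56-fold higher, limma adjusted p = 0.0494). It was lost in 17 of 24 alternatives, with limma adjusted p between 0.0138 and 0.341 over all of them, and among those were leaving out LMC radial replicates 2 or 3, phrenic replicates 2 or 3 or any C3-C5 GFP-only replicate. Phrenic minus C3-C5 GFP-only was 0.54 ± 0.15 without passing (limma adjusted p = 0.106). Scd2, the desaturase most abundant in brain, averaged 12.11 ± 0.07, 12.08 ± 0.04 and 11.94 ± 0.06 in phrenic, LMC radial and C3-C5 GFP-only arrays (SD, n = 4, 3 and 4). It did not pass by this brightest probe set. In the same order, its probe set 1415823_at averaged 10.79 ± 0.46, 10.93 ± 0.05 and 10.68 ± 0.12. The dimmest, 1415824_at, averaged 8.12 ± 0.88, 8.06 ± 0.35 and 7.02 ± 0.54, with phrenic and C3-C5 GFP-only arrays overlapping. Fasn, fatty acid synthase, did not pass either (LMC radial minus the mean of the others 0.31 ± 0.12, limma adjusted p = 0.162).

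No sterol carrier passed by its brightest probe set. Stard4, a soluble sterol transfer protein, varied most, at 8.20, 7.05, 6.55 and 7.08 in phrenic, against 7.84, 8.94 and 8.05 in LMC radial and 7.72, 7.31, 6.84 and 7.08 in C3-C5 GFP-only arrays. LMC radial minus C3-C5 GFP-only was 1.04 ± 0.38 (limma adjusted p = 0.161), and phrenic and LMC radial arrays overlapped. Npc2, the lysosomal sterol binding protein, gave -0.31 ± 0.09 for phrenic minus LMC radial (limma adjusted p = 0.0778), and its second probe set, 1416901_at, passed there (-0.63 ± 0.13, limma adjusted p = 0.0181). Npc1, its membrane partner, averaged 6.17 ± 0.51, 6.25 ± 0.24 and 6.52 ± 0.13 in phrenic, LMC radial and C3-C5 GFP-only arrays and did not pass.

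Across the 29 genes the shift of LMC radial neurons was small and ran mostly one way. The difference for LMC radial against the mean of the others was above 0 for 24 of 29 genes with a median of 0.168, beside 50.4% of all probe sets with a median of 0.003 and 39.6% of the 8901 genes with a mean above 6 with a median of -0.061. Phrenic minus LMC radial was below 0 in 24 of 29 genes, with a median of -0.137. Over all 45037 probe sets 23373 were below 0 (median -0.013), and over the 8901 genes 3772 were (median 0.054). LMC radial minus C3-C5 GFP-only was above 0 in 25 of 29 genes, with a median of 0.248. The shares above 0 there were 50.5% of all probe sets (median 0.003) and 38.5% of the 8901 genes (median -0.073). Phrenic minus C3-C5 GFP-only was above 0 in 16 of 29 genes (median 0.02), beside 49.9% of all probe sets (median 0). Averaged over the 29 genes, LMC radial arrays lay at 9.51 to 9.65, phrenic arrays at 9.25 to 9.39 and C3-C5 GFP-only arrays at 9.30 to 9.43. The 8901 genes averaged 8.54 to 8.57 in LMC radial, 8.61 to 8.71 in phrenic and 8.60 to 8.72 in C3-C5 GFP-only arrays, so the order of the types was not the same. Other genes of the pathway, described below, did not share the shift of LMC radial neurons against the mean of the others. Of 21 further genes of sterol and fatty acid synthesis 10 were above 0, with a median of -0.019. Of 19 genes of sterol uptake, export and turnover 7 were above 0, with a median of -0.131. These are descriptions of lists chosen with earlier results of these data known, with no test.

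**Figure D4:**
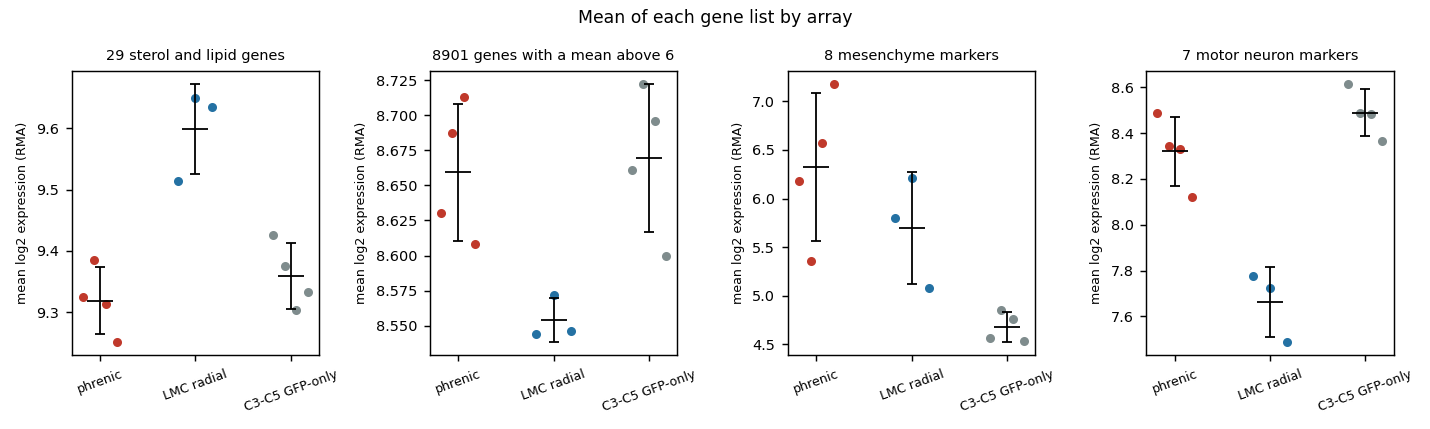
Mean log2 expression by array of the 29 sterol and lipid genes, of 8901 genes with a mean above 6, of 8 mesenchyme markers and of 7 motor neuron markers (points, arrays; black bar, mean ± SD). LMC radial arrays are highest for the sterol genes and lowest for the other genes and the motor neuron markers, and C3-C5 GFP-only arrays are lowest for mesenchyme markers.

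Of 24 further enzymes and processing factors of sterol and fatty acid synthesis, 21 were measured and 1 was higher and 0 lower in phrenic neurons against the mean of the other types, beside 2.4% and 1.45% of all probe sets. Mbtps2, the site-2 protease that releases SREBP from the membrane, averaged 9.22 ± 0.10 in phrenic (SD, n = 4), 8.68 ± 0.10 in LMC radial (n = 3) and 8.76 ± 0.10 in C3-C5 GFP-only arrays (n = 4). It was higher in phrenic neurons than in LMC radial (0.54 ± 0.10, limma adjusted p = 0.0117) and C3-C5 GFP-only cells (0.46 ± 0.10, limma adjusted p = 0.0375), and all phrenic arrays lay above the others. Of 22 genes of sterol uptake, export and turnover, 19 were measured and 1 was higher and 0 lower in that comparison, beside the same shares of all probe sets. Neither count is a result about its list. Cyp46a1, which hydroxylates cholesterol for export from neurons, was higher in phrenic neurons against the mean of the others (1.22 ± 0.29, 2.33-fold, limma adjusted p = 0.0455), with means of 7.15 ± 0.83 in phrenic, 5.72 ± 0.23 in LMC radial and 6.14 ± 0.16 in C3-C5 GFP-only arrays. For phrenic minus C3-C5 GFP-only alone, 0 genes of its list passed, Cyp46a1 included (smallest limma adjusted p = 0.0867). In LMC radial and in C3-C5 GFP-only neurons against the mean of the others, 0 genes of either list passed in limma. The unadjusted limma p was under 0.05 for 3 of 21 and 7 of 19 genes in LMC radial, beside 10326 of all 45037 probe sets. In C3-C5 GFP-only it was so for 2 of 21 and 4 of 19, beside 6685 of 45037.

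Motor neuron markers (Mnx1, Isl1, Isl2, Chat, Slc18a3, Slc5a7, Prph) averaged 8.12 to 8.49 in phrenic, 7.49 to 7.78 in LMC radial and 8.37 to 8.62 in C3-C5 GFP-only arrays. Isl1 was 6.46-fold higher and Mnx1 1.82-fold higher in phrenic than in LMC radial neurons. Isl1 had the largest phrenic minus LMC radial difference of the 7, at 2.69, beside a median of 0.323 with 1 marker below 0. Isl1 therefore weighs most in the gap between the list means of these 2 types. Whether the sorts differed in their share of motor neurons was not tested. Markers of other cells moved with the groups as well. The 8 mesenchyme markers averaged 5.36 to 7.18 in phrenic, 5.08 to 6.22 in LMC radial and 4.53 to 4.85 in C3-C5 GFP-only arrays, with 1 higher in phrenic against the mean of the others (Fn1) and Lum below 5 in every array. The 4 cycling markers averaged 7.12 to 9.04, 6.68 to 7.89 and 6.31 to 6.65, and the 6 progenitor markers 7.38 to 8.99, 7.09 to 7.75 and 6.99 to 7.28 in the same order, with 0 of either passing in phrenic against the mean of the others. For phrenic minus C3-C5 GFP-only, where Insig2, Ebp and Hsd17b7 were called, 2 of 8 mesenchyme markers were higher (Fn1 and Postn, 2.81-fold and 2.54-fold), as were 1 cycling marker (Cdk1, 3.41-fold) and 1 progenitor marker (Slc1a3, 3.32-fold). All 8 mesenchyme differences there were above 0, with a median of 1.776. The 4 Schwann cell and oligodendrocyte markers averaged 4.96 to 6.81, 5.38 to 6.00 and 5.28 to 5.54, with 0 passing. Erbb3 ranged widely over the arrays, at 4.36 to 8.43, and so did Sox10, at 3.45 to 6.41, while Mbp was at 8.60 to 9.05 and Olig1 below 5 in every array. Of 5 endothelial markers Cdh5, Pecam1 and Kdr, and of 6 macrophage markers Csf1r, Aif1 and C1qa, stayed below 5 in every array, and 0 of either list passed. The others went above 5 in at least 1 array: Tek was at 2.55 to 6.49, C1qb at 2.75 to 7.37, Cd68 at 4.38 to 6.31, Cldn5 at 3.95 to 5.60 and Cx3cr1 at 4.11 to 5.53. With the mesenchyme mean as a covariate, Insig2 alone of the 5 genes called in phrenic against the mean of the others still passed (-1.19, limma adjusted p = 0.0424). The differences of the other 4 were -0.68 for Ebp, -0.75 for Msmo1, -0.44 for Lss and 0.48 for Hsd17b7, beside -0.71, -0.87, -0.57 and 0.40 without the covariate. For phrenic minus C3-C5 GFP-only the covariate gave -0.80 for Insig2, -0.52 for Ebp and 0.67 for Hsd17b7, beside -1.34, -0.57 and 0.56, and 0 of the 3 passed in limma. The part of these cells in the differences was not tested further.

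RNA integrity, read as Actb 3′ minus 5′ control signal, gave log2 differences of 1.71 ± 0.48 in phrenic, 1.06 ± 0.06 in LMC radial and 1.53 ± 0.43 in C3-C5 GFP-only arrays (SD over 4, 3 and 4 arrays). With it as a covariate 0 of the 4 genes higher in LMC radial neurons against the mean of the others still passed in limma. Their differences were 1.12 for Insig2, 0.59 for Ebp, 0.61 for Lss and 0.53 for Msmo1, beside 1.12, 0.57, 0.55 and 0.76 without it, and the limma adjusted p of Insig2 was 0.0583. Insig2 and Ebp still passed for phrenic against LMC radial. The part of RNA integrity in the LMC radial differences was not tested further.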

How the data were processed

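RNA of sorted motor neurons was measured on 11 Affymetrix mouse arrays. The deposited values are log2 expression from RMA, per the labels and the submitters' processing notes, whose version is not given in the sources used here, and were used as deposited with no further scaling. RMA background correction and quantile scaling can compress differences of dim probe sets. Of 45101 probe sets, 64 controls were left out; of the 45037 tested, 34945 had 1 gene symbol, 932 several and 9160 none in the platform annotation. Each gene was represented by its probe set of highest mean over the arrays.

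A model with 1 mean per cell type was fitted with limma 3.58.1 in R 4.3.3 (lmFit, contrasts.fit, eBayes, 8 residual and 2.92 prior degrees of freedom) for 6 comparisons, with Benjamini-Hochberg adjustment over all probe sets within each. Adjusted p-values under 0.05 passed. The number of arrays limits the precision. On simulated data for phrenic against the mean of the others, over 45037 probe sets, the fit recovered 76 of 100 probe sets changed 2-fold and 95 of 100 changed 4-fold, with 6 false calls. The simulated noise was independent between probe sets and arrays, without the shared deviations of the real arrays. No change under 2-fold was simulated, so these figures do not cover smaller differences such as those of Lss, Ebp, Hsd17b7 and Scd1. Members, gene lists and named genes were chosen with earlier results of these data known. Values in every array are given for members that passed in at least 1 comparison and for the 5 regulators, other members by means or ranges, and genes of the further pathway lists where they passed against the mean of the other types. Beyond that rule, the array values of Fdps and Stard4 and the other probe sets of Insig2, Msmo1, Lss, Fdft1, Npc2, Hmgcs1 and Scd2 were added after their values were seen.

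Same-numbered arrays of different types were compared by their deviations from the type means. All 4 phrenic and C3-C5 GFP-only pairs correlated at 0.125 to 0.224, and their 12 pairs of unlike number at -0.254 to 0.28. Each phrenic array correlated better with a C3-C5 GFP-only array of another number. For phrenic replicates 1 to 4 these values were 0.186, 0.269, 0.28 and 0.179, beside 0.125, 0.183, 0.224 and 0.177 for the same number. Between these types, correlations were positive within replicates 1 and 4 and within replicates 2 and 3, and negative otherwise. The set of arrays, named below, divides these replicates in the same way. The data therefore did not show pairing by number, and the labels name no shared litter or day. Same-numbered pairs with LMC radial arrays correlated at -0.083 to 0.05 and were not taken as pairs either. Alternatives were quantile normalization, median centring, a filter and a floor at 5 for dim values, a trended robust prior, array weights, a replicate block, gene means, fits of 2 types only, the set of arrays, the Actb 3′ minus 5′ difference, leaving out each array, and, chosen after seeing the data, the mesenchyme marker mean as a covariate.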

Additional observations from a re-analysis of the deposited data

Results flagged for a closer look

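Among 58 groups of 4 arrays, 5 had an array far from the others by Dixon's test, where chance gives about 1 in 20 groups. Idi1 was at 9.0585 in phrenic replicate 3, against 9.596 to 9.647 in the other phrenic arrays. Lss was at 10.0128 in C3-C5 GFP-only replicate 4, against 9.584 to 9.611 in the others of that type. Insig1 was at 11.5006 in C3-C5 GFP-only replicate 1, against 11.823 to 11.875. Scd1 was at 9.8094 in C3-C5 GFP-only replicate 3, against 10.142 to 10.17. Npc2 was at 10.8738 in C3-C5 GFP-only replicate 4, against 10.945 to 10.953. The LMC radial arrays were too few for this test.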

How the results depend on the processing

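The 17 calls of single members gave 399 values under the alternatives, of which 282 still passed and 117 (29.3%) did not, with 0 changes of sign; 41 values of members not called came to pass. The count of members called for LMC radial against the mean of the others, 4, was 7 with a trended robust prior, 10 with array weights, 2 with the array set as a term, 1 in the 7 arrays of higher 25th percentile, 0 with the Actb covariate, and 1 to 6 without 1 array. That for phrenic against the mean of the others, 5, was 3 with gene means, 1 in the 7 arrays, 3 with Actb, 1 with the mesenchyme mean, and 3 to 5 without 1 array. That for C3-C5 GFP-only against the mean of the others, 0, was 1 with dim probe sets left out, 2 with the robust prior, 2 with array weights, 1 with gene means, and 0 to 1 without 1 array. Phrenic minus C3-C5 GFP-only, 3, gave 0 in the 7 arrays, 0 with the mesenchyme mean, and 1 to 3 without 1 array. Phrenic minus LMC radial, 4, gave 1 in the 7 arrays, 2 with Actb, and 3 to 5 without 1 array. LMC radial minus C3-C5 GFP-only, 1, gave 0 with quantile normalization, dim probe sets left out, the floor, the array set, the 7 arrays, Actb or the mesenchyme mean, 6 with array weights, 2 with gene means, and 0 to 1 without 1 array. The cause was not tested, beyond the smaller number of arrays where some were left out. With a replicate block the 6 counts, in the order above, were 5, 4, 0, 2, 4 and 1; it ended the calls of Ebp for phrenic minus C3-C5 GFP-only (adjusted p = 0.0616 in limma), Lss for phrenic against the mean of the others (0.0511) and Scd1 for LMC radial minus C3-C5 GFP-only (0.0784), and no other call of a member. In 3 of 20 cases an array correlated best with its own number.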
